A study of Mus musculus with 36 samples.

Results

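The suprachiasmatic nucleus signalling genes are 8 genes that mark, signal within or build the central clock of the hypothalamus: the neuropeptides Vip, Prok2 and Nms, the receptors Vipr2 and Prokr2, the G protein regulator Rgs16 and the transcription factors Lhx1 and Six6. They were chosen by symbol, as the transcript clusters (array probe groups for 1 transcript unit) that name only that gene, with the cluster of highest mean used per gene. All 8 were found, each with 1 cluster, among 18820 genes of the array. All 8 were above an intensity of 20 on each of 35 arrays and entered the table of 15049 genes tested. Of other peptides and receptors listed for the nucleus, Avp (log2 intensity 8.34 to 10.5) and Grp (5.48 to 6.90) were above this intensity on every array. Nmu was above it on 0 of 35 arrays, Prok1 on 5, Prokr1 on 30 and Clcf1 on 31, and the rest on all 35. The samples were whole hypothalami, so these levels do not tell in which nucleus a transcript was made.

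Hypothalamic RNA came from 36 male C57BL/6 mice, 6 per group, and was hybridized to 1 Affymetrix Mouse Gene 1.1 ST array each. Each mouse received an intraperitoneal volume of 50 µl in saline shortly before the dark phase, and tissue was taken 5 h later. The injection held no cytokine in Control and 15 pg TNFα in TNF ("TNFa low" in the labels). It held 50 pg IL-6 in IL-6 Low, 800 pg IL-6 in IL-6 High, 15 pg TNFα with 50 pg IL-6 in TNF + IL-6 Low, and 15 pg TNFα with 800 pg IL-6 in TNF + IL-6 High. The comparisons ask whether a peripheral cytokine signal changes transcript levels in the hypothalamus at this hour. The array named TNF replicate 4 correlated with the others at a median of 0.302, against 0.988 to 0.994 for the remaining 35, and was left out, so TNF is represented by 5 mice. Precision is limited by how many arrays there are.

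The suprachiasmatic nucleus is a small paired nucleus above the optic chiasm that receives light input from the retina and sets daily rhythms. Its ventral neurons make vasoactive intestinal peptide (Vip), which acts on the receptor VPAC2 (Vipr2) of neighbouring neurons and keeps their rhythms in step. Prokineticin 2 (Prok2) is rhythmically released as an output signal and acts on Prokr2, neuromedin S (Nms) marks a group of pacemaker neurons, Rgs16 shortens signalling through inhibitory G proteins, and Lhx1 and Six6 are transcription factors needed to form the nucleus or to keep its peptides expressed. None of the 8 is expressed in this nucleus alone: Rgs16 is well known in the thalamus, Six6 in the mediobasal hypothalamus and pituitary, and Vip in the cortex. The samples were whole hypothalami, in which fewer cells of a type and less RNA per cell cannot be told apart.

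The promoters of the prokineticin pair and of Vip and Rgs16 are shown because the former hold the clock-related motifs found and the latter moved in opposite directions across arrays. They run from 250 bases before to 50 after the transcription start, from RefSeq on GRCm38.p6, in the direction of the gene. They lie at chr6:99726343-99726642 (Prok2, minus strand), chr2:132385398-132385697 (Prokr2, minus strand), chr10:5638968-5639267 (Vip, plus strand) and chr1:153740103-153740402 (Rgs16, plus strand). Capitals mark an E-box in Prok2 and a REV-ERB or ROR element in Prokr2.
Prok2: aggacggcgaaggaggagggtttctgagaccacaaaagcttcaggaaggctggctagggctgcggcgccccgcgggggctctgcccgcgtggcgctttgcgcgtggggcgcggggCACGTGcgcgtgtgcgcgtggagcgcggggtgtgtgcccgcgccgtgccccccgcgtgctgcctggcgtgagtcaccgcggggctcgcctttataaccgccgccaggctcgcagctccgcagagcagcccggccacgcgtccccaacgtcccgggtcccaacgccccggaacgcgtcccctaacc
Prokr2: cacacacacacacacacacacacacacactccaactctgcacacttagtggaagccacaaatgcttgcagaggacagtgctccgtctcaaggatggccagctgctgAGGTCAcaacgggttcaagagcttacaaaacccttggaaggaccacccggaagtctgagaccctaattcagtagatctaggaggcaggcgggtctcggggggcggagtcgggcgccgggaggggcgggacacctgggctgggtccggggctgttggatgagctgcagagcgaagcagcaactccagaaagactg
Vip: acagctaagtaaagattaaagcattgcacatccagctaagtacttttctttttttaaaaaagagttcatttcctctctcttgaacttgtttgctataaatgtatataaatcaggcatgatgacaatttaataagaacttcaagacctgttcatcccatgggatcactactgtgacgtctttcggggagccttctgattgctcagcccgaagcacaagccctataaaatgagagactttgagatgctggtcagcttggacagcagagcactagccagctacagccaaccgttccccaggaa
Rgs16: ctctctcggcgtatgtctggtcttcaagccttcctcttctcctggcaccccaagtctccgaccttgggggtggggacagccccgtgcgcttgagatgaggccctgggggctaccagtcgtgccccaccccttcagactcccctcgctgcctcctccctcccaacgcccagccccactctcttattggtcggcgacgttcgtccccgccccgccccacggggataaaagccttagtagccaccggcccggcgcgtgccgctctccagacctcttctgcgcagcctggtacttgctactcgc
Promoters of all 8 genes were searched on both strands for the E-box CACGTG, the cyclic AMP response element TGACGTCA, the D-box TTATGTAA or TTACGTAA, and the REV-ERB or ROR element AGGTCA. Only the Prok2 promoter held an E-box, which starts 135 bases before the transcription start, and only the Prokr2 promoter held a REV-ERB or ROR element, 144 bases before the start. None of the 8 held the cyclic AMP response element or the D-box. Only whole matches were counted. The Vip and Lhx1 promoters hold tgacgtct and tgacgtcg, which differ from the searched cyclic AMP response element in the last letter. Of the 32851 promoters in the table, 7.15% held an E-box, 1.79% the cyclic AMP response element, 1.06% a D-box and 16.3% a REV-ERB or ROR element. The prokineticin 2 promoter was also rich in G and C, at 73.7% of bases, against a median of 52.7% over all promoters, while the Vip promoter had 41.7%. These matches describe the letters in a window, not sites of binding.

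No member differed from Control in any cytokine group at an adjusted p under 0.05 (limma, Benjamini-Hochberg over 15049 genes). Of all genes tested, 0% passed in each of the 5 comparisons, in the mean of the 5 treated groups, in the comparisons of IL-6 doses, in the departures from additivity and in the test of any group. Of the 40 differences of a member from Control, 34 were below 0 and 6 above. Of the 34, 4 small ones turned positive when arrays were centred on their medians and 7 when arrays were weighted by quality. Of all 15049 genes, between 6710 (TNF) and 9378 (TNF + IL-6 High) were below 0 in the same 5 comparisons. The 40 values share the Control arrays, and some members were correlated across arrays, so they are not independent. Control replicate 1 weighed on them. Without it, the difference in the mean of the 5 treated groups went from -0.12 to -0.0355 for Vip and from -0.16 to -0.0198 for Six6. It went from -0.13 to -0.0617 for Prokr2, from -0.051 to -0.0052 for Lhx1 and from -0.22 to -0.15 for Vipr2. That of Rgs16 went the other way, from 0.0204 to -0.096. The largest of the 40 differences was a 1.30-fold lower Vipr2 level in IL-6 High. Of the 40, 3 had an unadjusted p under 0.05 in limma. These were Nms in TNF, and Vipr2, the receptor of vasoactive intestinal peptide, in TNF and in IL-6 High. Of all genes, 5.29% were under it in TNF and 2.07% in IL-6 High. Vip was under it only in the test of any group, as were 3.01% of all genes.

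**Figure D1:**
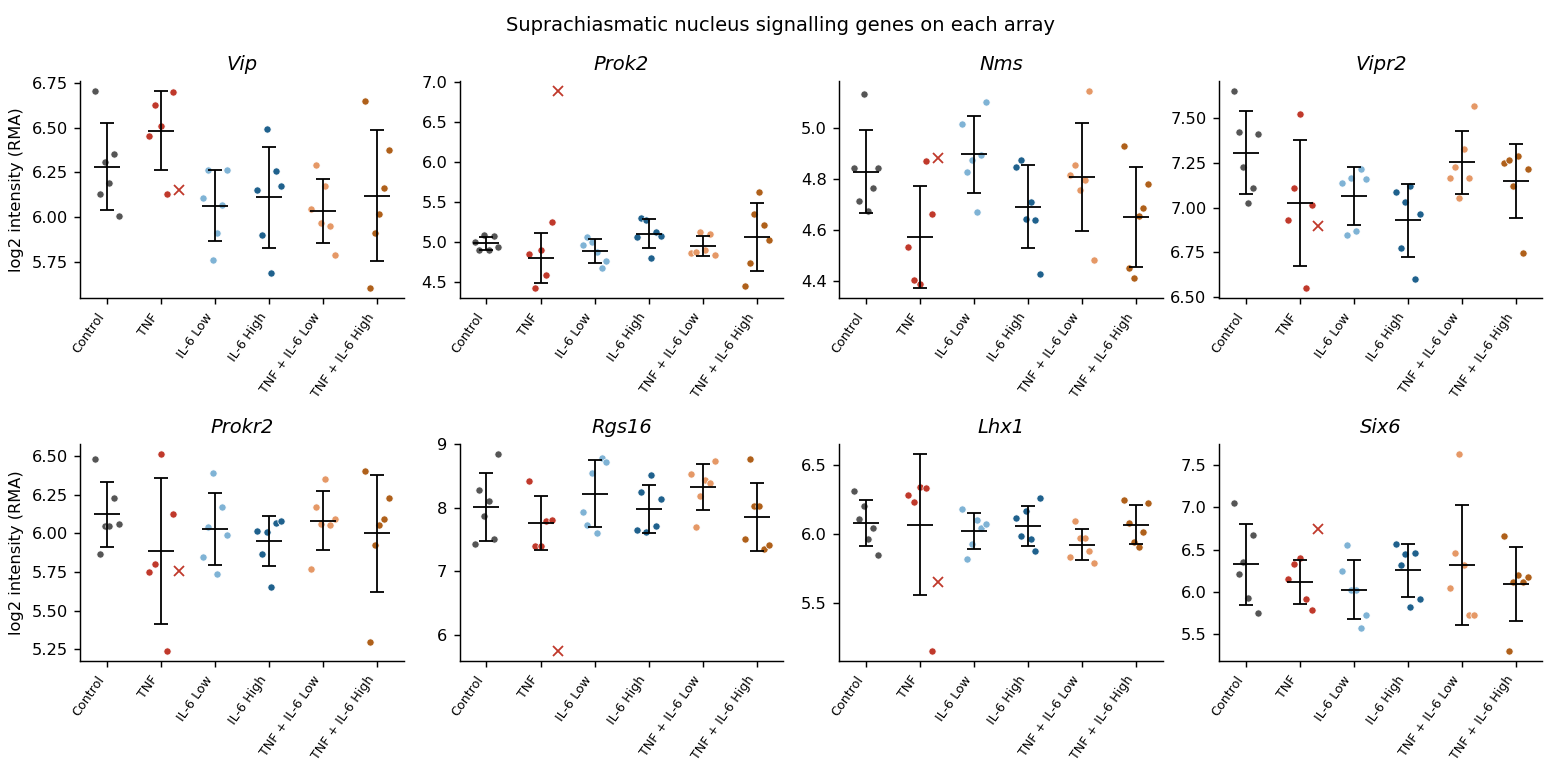
Log2 RMA intensity of the 8 genes on each array (points), by group, with the mean and SD (black bars) of 6 arrays, or of 5 in TNF. A cross marks TNF replicate 4, which is outside the means, and each panel has its own scale. Vipr2 in IL-6 High runs from 6.60 to 7.12, with 3 of its 6 arrays below the lowest of Control, which runs from 7.02 to 7.65, and Rgs16 and Six6 spread widely within every group.

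Among the peptides, Vip spanned a lowest, median and highest log2 intensity of 6.00, 6.25 and 6.71 in Control. In TNF it was 6.13, 6.51 and 6.70, the highest median of the 6 groups. In IL-6 Low it was 5.76, 6.08 and 6.26, and in IL-6 High 5.69, 6.16 and 6.49. The combined groups were similar to these, at 5.79, 6.00 and 6.29 with the lower dose of IL-6 and 5.60, 6.09 and 6.65 with the higher dose. Thus all groups overlapped with Control, and the 4 groups given IL-6 had the lower medians. Vip differed from Control by 0.20 (SE 0.15) on the log2 scale in TNF, where the 95% interval ran from -0.09 to 0.50. After 50 and 800 pg IL-6 alone the differences were -0.22 (SE 0.14) and -0.17, and after the same doses together with TNFα they were -0.25 (95% interval -0.53 to 0.04) and -0.16. Without Control replicate 1 they were -0.14 and -0.0879 after IL-6 alone and -0.16 after its lower dose with TNFα, and without TNF + IL-6 High replicate 2 that group was at -0.0596. Over the 6 groups together Vip had an unadjusted p of 0.0358 and an adjusted p of 1.00 (limma F test), where 3.01% of all genes and 3 of 8 members were at an unadjusted p under 0.05.

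Nms, a peptide of clock neurons that also restrains feeding when given to the brain, lay close to the minimum intensity, between 20.9 and 35.4 on the linear scale over the 35 arrays. Its log2 intensities were 4.67, 4.80 and 5.13 (lowest, median, highest) in Control and 4.39, 4.40, 4.53, 4.66 and 4.87 on the arrays of the TNF group. Thus 4 of 5 TNF arrays lay below the lowest Control array and 1 above the Control median. In TNF, Nms was lower by 0.26 on the log2 scale (log2 difference -0.26, SE 0.11, 95% interval -0.48 to -0.03), with an unadjusted p of 0.0262 and an adjusted p of 0.911 in limma. At the unadjusted threshold 5.29% of all genes and 2 of 8 members passed in this comparison. After 800 pg IL-6 the differences were -0.14 alone and -0.18 together with TNFα, and after 50 pg they were 0.07 and -0.02. Both groups given 800 pg IL-6 were below their 50 pg partner, by -0.21 (SE 0.11, limma unadjusted p = 0.0591, adjusted p = 0.999) without TNFα and -0.16 with it. The 95% intervals of these dose differences, -0.42 to 0.01 and -0.37 to 0.06, both include 0.

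Prok2 was also dim, at intensities of 21.4 to 49.1. Its Control arrays lay within a narrow range of 4.90 to 5.08, whereas TNF arrays ran from 4.42 to 5.24 and TNF + IL-6 High arrays from 4.45 to 5.62. The group SD was 0.08 in Control and 0.42 in TNF + IL-6 High. The differences from Control lay between -0.18 in TNF and 0.12 in IL-6 High, and no 95% interval excluded 0. Without TNF replicate 2 the difference in TNF was -0.0872. At the lowest and highest bounds the intervals still allowed -0.47 in TNF and 0.39 in IL-6 High.

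Vipr2, which passes the Vip signal to cyclic AMP, was the member with the clearest differences. Its lowest, median and highest log2 intensities were 7.02, 7.32 and 7.65 in Control, 6.60, 6.997 and 7.12 in IL-6 High, and 6.85, 7.15 and 7.22 in IL-6 Low. The TNF arrays were at 6.55, 6.93, 7.01, 7.11 and 7.53. Every group had a lower median than Control, and every group overlapped with Control. In IL-6 High all 6 arrays lay below the Control median and 3 of them below the lowest Control array, with a log2 difference of -0.38 (SE 0.12, 95% interval -0.63 to -0.13, 1.30-fold lower). This difference ranked 9 of 15049 genes by p in that comparison, with an unadjusted p of 0.00387 and an adjusted p of 1.00 in limma, and 2.07% of all genes and 1 of 8 members had an unadjusted p under 0.05. In limma the difference was -0.28 (SE 0.13, unadjusted p = 0.035, adjusted p = 0.911) in TNF and -0.24 (SE 0.12, unadjusted p = 0.0561, adjusted p = 1.00) in IL-6 Low. Without TNF replicate 5 the TNF difference was -0.16. At the unadjusted threshold 0 of 8 members and 1.4% of all genes passed in IL-6 Low.

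The groups given both cytokines were closer to Control. Vipr2 ran over 7.06, 7.20 and 7.57 with the lower dose of IL-6 and 6.75, 7.23 and 7.29 with the higher dose, where again all 6 arrays lay below the Control median. The log2 differences were -0.06 (SE 0.12, 95% interval -0.30 to 0.19) and -0.16 (SE 0.12, 95% interval -0.41 to 0.09). The former was 0.0138 without Control replicate 1, and the latter -0.0793 without TNF + IL-6 High replicate 5. No member had an unadjusted p under 0.05 in either group, against 9.58% and 2.05% of all genes. The combined groups differed from the sum of the effects of each cytokine alone by 0.47 (SE 0.18, 95% interval 0.11 to 0.83) at 50 pg IL-6 and by 0.50 (SE 0.18, 95% interval 0.14 to 0.86) at 800 pg. The unadjusted p was 0.0122 at 50 pg and 0.00777 at 800 pg, and the adjusted p was 0.991 and 0.96 (limma). Of all genes 3.28% and 4.01% were under the unadjusted threshold in these 2 tests, which share the Control and TNF arrays, and of the members Vipr2 alone. In the mean of the 5 treated groups Vipr2 was at -0.22 (SE 0.10, limma unadjusted p = 0.0247, adjusted p = 1.00), again as 1 of 8 members, with 3.08% of all genes.

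Prokr2, the receptor of Prok2, showed smaller differences against a wider spread. Its arrays ran from 5.87 to 6.48 in Control, 5.24 to 6.52 in TNF and 5.30 to 6.40 in the TNF + IL-6 High group. Its difference from Control was below 0 in all 5 groups, from -0.24 (SE 0.16, 95% interval -0.57 to 0.09) in TNF to -0.04 in TNF + IL-6 Low. All 5 of the 95% intervals included 0. Without TNF replicate 5 the TNF difference was -0.0755. Without Control replicate 1 that after TNFα with 50 pg IL-6 was 0.0316, and without TNF + IL-6 High replicate 2 that of its group was 0.0179. Weighting the arrays by quality made the difference positive in both groups given 50 pg IL-6, at 0.0386 without and 0.0595 with TNFα.

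**Figure D2:**
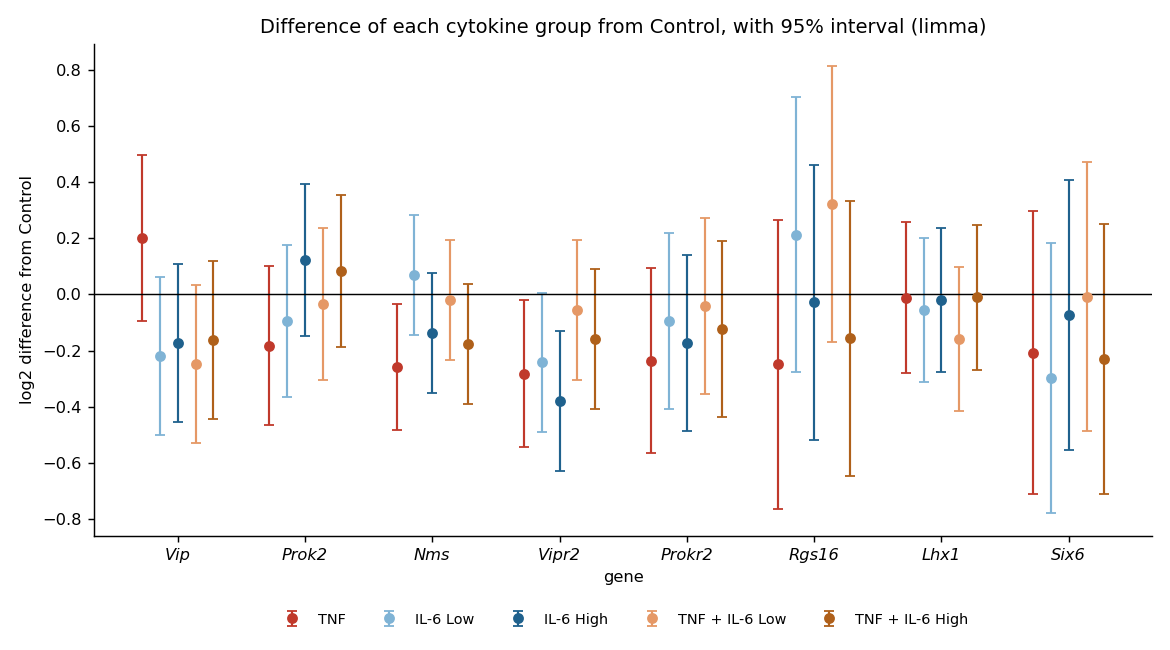
Log2 difference of each cytokine group from Control for the 8 genes (points, coloured by group), with the 95% interval from limma. Only the intervals of Nms in TNF and of Vipr2 in TNF and IL-6 High lie wholly below 0, without adjustment for the number of genes, and those of Rgs16 and Six6 are the widest.

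Rgs16 had the largest array-to-array spread of the members, with a within-group SD of 0.47, wider than 99.2% of all genes tested, whose median was 0.16. Control arrays covered 7.42, 7.99 and 8.85 (lowest, median, highest), and TNF + IL-6 Low arrays 7.69, 8.42 and 8.73. TNF + IL-6 High arrays covered 7.36, 7.77 and 8.76. The groups overlapped almost fully. The differences from Control were -0.25 after TNFα, 0.21 and -0.03 after 50 and 800 pg IL-6, and 0.32 and -0.16 after these doses with TNFα, with SEs of 0.24 to 0.25. These values moved with single Control arrays. Without Control replicate 6 the TNF difference was -0.0802 and those after 50 pg IL-6 were 0.38 alone and 0.49 with TNFα, while without Control replicate 1 the last 2 were 0.0964 and 0.21. After 800 pg IL-6 the difference was 0.14 alone and 0.0126 with TNFα without Control replicate 6. The 7 thalamus markers, mostly transcription factors and signalling genes of thalamic relay neurons, had median differences of -0.21, 0.30, 0.04, 0.47 and -0.12 in the same order, where the median of all genes lay between -0.02 and 0.01. The part of the thalamus markers in the Rgs16 differences was not tested. Between the combined groups Rgs16 was lower at 800 than at 50 pg IL-6 by -0.48 (SE 0.24, 95% interval -0.97 to 0.01, unadjusted p = 0.0553, adjusted p = 0.845 in limma). In this comparison 5.35% of all genes and 0 of 8 members had an unadjusted p under 0.05, and in that of IL-6 High with IL-6 Low 1.45% of all genes and 0 of 8 members.

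Six6 had a within-group SD of 0.45, wider than 99.1% of genes. Its arrays ran over 5.75, 6.29 and 7.05 in Control and over 5.72, 6.18 and 7.63 in TNF + IL-6 Low, in which replicate 3 held the highest value of the series. The lowest value, 5.30, came from TNF + IL-6 High replicate 2. Differences from Control lay between -0.30 (SE 0.24, 95% interval -0.78 to 0.18) after 50 pg IL-6 and -0.01 after the same dose with TNFα. The latter was -0.27 without TNF + IL-6 Low replicate 3 and 0.14 without Control replicate 1. Without Control replicate 1 the former was -0.16 and that in TNF -0.0642 rather than -0.21. On TNF + IL-6 Low replicate 3 the mean of the pituitary markers was 11.6, against a group mean of 6.36 and 4.68 to 6.17 in Control. Over the 35 arrays the deviations of Six6 and of the pituitary markers had r = 0.42 (adjusted permutation p = 0.295, rho = 0.10), and 0.03 without this array and TNF + IL-6 High replicate 2. The part of the pituitary markers in the Six6 value of that array was not tested.

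Lhx1, a LIM homeobox factor that maintains peptide expression in the nucleus, overlapped with Control in every group. The lowest group median was 5.92 (TNF + IL-6 Low) and the highest 6.28 (TNF), and the Control arrays ran from 5.85 to 6.31. Its differences from Control lay between -0.16 (SE 0.13, 95% interval -0.42 to 0.10) with TNFα and 50 pg IL-6 and -0.01 with TNFα alone or with 800 pg IL-6. The 95% intervals of the other groups reached from -0.31 to 0.26 at most. One TNF array, replicate 6, stood at 5.15 while the other 4 lay between 6.23 and 6.34, and without it the TNF difference was 0.22.

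Other genes of the nucleus were listed alongside. Of 14 tested genes for other peptides and receptors (Avp, Grp, Adcyap1 and their receptors, Gpr176 and others), 8 were lower after TNFα, 10 and 8 after 50 and 800 pg IL-6, and 12 and 9 after these doses with TNFα, with median log2 differences of -0.03, -0.08, -0.01, -0.12 and -0.04. Of 11 transcription factors and intracellular genes, 7, 7, 8, 5 and 10 were lower in the same order. Zfhx3, which sets the expression of several peptides of the nucleus, had the smallest p of all listed genes: it was at -0.44 (SE 0.10) in TNF, with an unadjusted p of 5.4e-05 and an adjusted p of 0.273 in limma. Of 17 tested clock genes, 8, 8, 13, 9 and 15 were lower, and the smallest p belonged to the repressor Cry1 in TNF + IL-6 Low (0.23, SE 0.09, limma unadjusted p = 0.0142, adjusted p = 0.511). None of these genes passed at an adjusted p under 0.05. Of all 15049 genes, 6710, 8143, 7139, 8406 and 9378 were lower in the same order. The median log2 differences of the clock genes were 0.023, 0.003, -0.034, -0.004 and -0.05. For comparison, the median log2 difference of the 8 members in this order was -0.22, -0.09, -0.11, -0.04 and -0.16, against -0.02 to 0.01 for all genes. The medians of the members share the Control arrays. Without Control replicate 1 the differences of Vip, Vipr2, Prokr2, Lhx1 and Six6 in the mean of the treated groups were smaller in size.

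Since no member was called in any comparison of groups, the relations of the members across arrays were examined on deviations from group means, over 35 arrays. Of 28 pairs of members, 4 had a permutation p under 0.05 after adjustment over the 28 pairs, and as many did by Spearman's rho. How often pairs of other genes pass on these arrays was not examined, so this count is not shown to be particular to the members. Vip rose and fell with Prokr2 (Pearson r = 0.62, permutation p = 0.00027, adjusted p = 0.00252; Spearman rho = 0.58, permutation p = 0.00087). Vip also went with Six6 (r = 0.52, permutation p = 0.00138, adjusted p = 0.00966; rho = 0.57, permutation p = 0.00086). Rgs16 opposed both Vip (r = -0.64, permutation p = 0.00019, adjusted p = 0.00252; rho = -0.64, permutation p = 0.00019) and Six6 (r = -0.67, permutation p = 7e-05, adjusted p = 0.00196; rho = -0.71, permutation p = 2e-05). Without the 2 arrays farthest from the median of the first-named gene these r were 0.49, 0.40, -0.58 (Vip with Rgs16) and -0.59 (Rgs16 with Six6). Vip with Six6 was no longer called without TNF + IL-6 High replicate 2 (r = 0.44, adjusted permutation p = 0.0521), without Control replicate 1 (0.46, adjusted permutation p = 0.0505) or with all 36 arrays (0.44, adjusted permutation p = 0.0587). Within arrays that share a letter in the array name (E, 6 arrays; F, 12; G, 11; H, 6), which is not explained in the labels, r of Vip with Prokr2 was 0.41 to 0.92, of Vip with Six6 0.47 to 0.85, of Vip with Rgs16 -0.94 to -0.37 and of Rgs16 with Six6 -0.86 to -0.62. The ligand Vip and its own receptor Vipr2 had r = 0.10, and Prok2 and Prokr2 0.22. Nms had no r beyond 0.23 in size with another member.

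TNF + IL-6 High replicate 2 shows the pattern on 1 array. It had the lowest Vip (5.60) and Six6 (5.30) of the 35 arrays, Prokr2 at 5.30 and Rgs16 at 8.76, the highest value of its group. Control replicate 1 lay at the other end, with Vip at 6.71, Six6 at 7.05 and Prokr2 at 6.48, the highest of their group, and Rgs16 at 7.42, the lowest of its group.

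**Figure D3:**
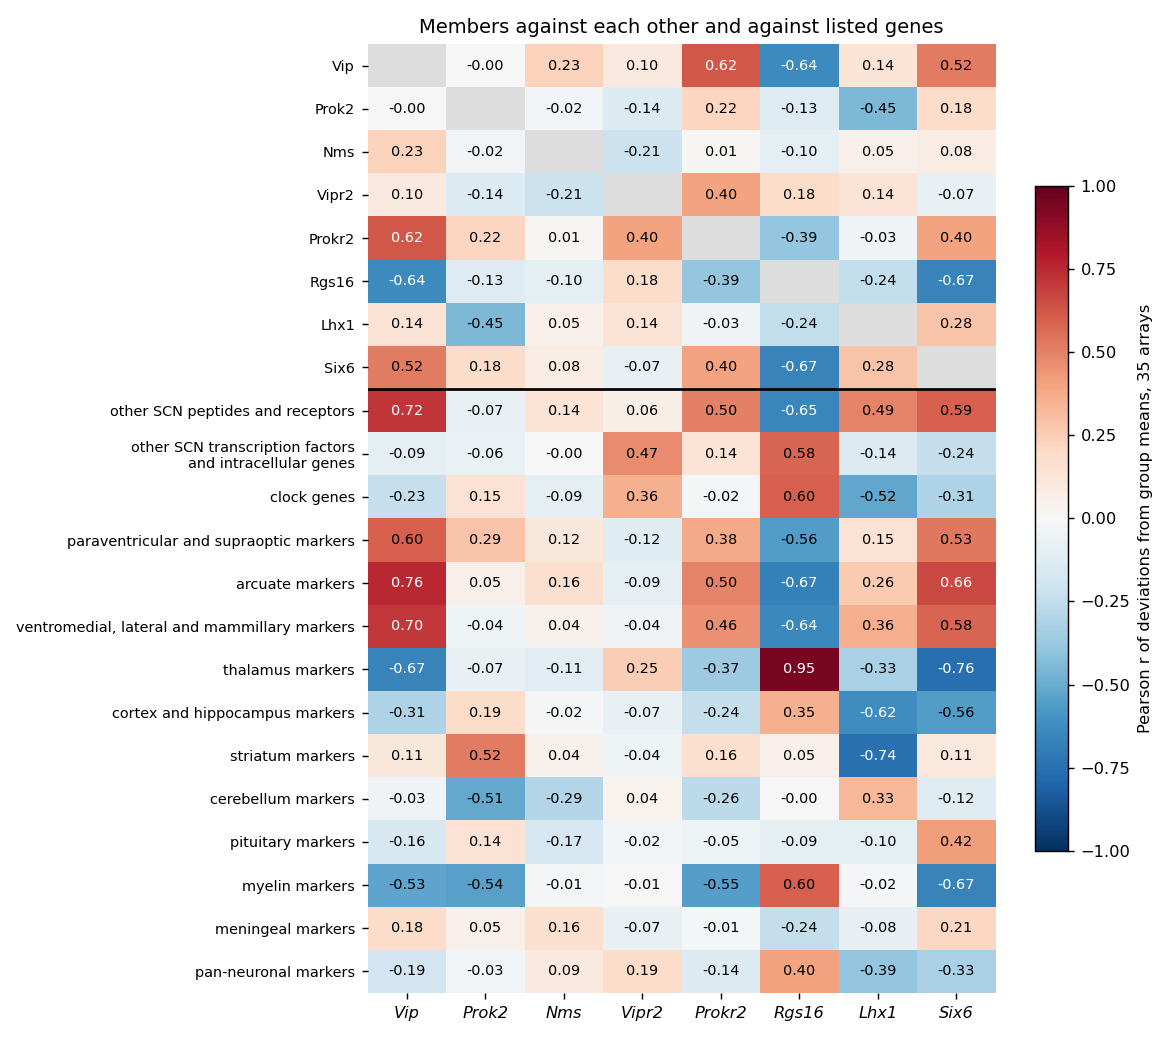
Pearson r of deviations from group means over 35 arrays, for each member (columns) against the other members (above the line) and against the mean of 14 gene lists (below). Red is positive and blue negative. Rgs16 with the thalamus markers is the highest at 0.95, while Vip and Six6 are positive with the arcuate and other hypothalamic markers and negative with the thalamus markers.

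The same arrays were ordered by markers of neighbouring brain regions. Of 112 relations of a member with the mean of a list, 26 had an adjusted p under 0.05 over the 112 (15 positive, 11 negative). The share of other genes with such relations was not examined either. The members and lists were chosen with earlier results of these data known. The permutation p-values here and for the pairs of members are therefore descriptive. The strongest was Rgs16 with the thalamus markers (Gbx2, Tcf7l2, Lef1, Prkcd, Tnnt1, Plekhg1 and Ramp3), at r = 0.95 and rho = 0.93, each with a permutation p of 1e-05, the smallest the permutations can give, and adjusted p of 0.000373 and 0.000448. It was 0.93 without the 2 farthest arrays and 0.92 to 0.98 within the letters of the array names. Six6 opposed the same markers (r = -0.76, adjusted permutation p = 0.000373; rho = -0.82, -0.81 without the 2 farthest arrays), and so did Vip (r = -0.67, adjusted permutation p = 0.00112; rho = -0.66, -0.60 without the 2 farthest). The mean of the 7 markers ranged from 6.08 to 8.22 in Control, 6.17 to 7.16 in TNF, 6.16 to 7.87 in IL-6 Low and 6.40 to 7.50 in IL-6 High. With TNFα and IL-6 it ranged from 6.46 to 8.15 at the lower dose and from 6.04 to 7.94 at the higher, so the groups overlapped throughout.

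Vip followed the arcuate markers Npy, Ghrh, Tac2 and Cartpt, at r = 0.76 (permutation p = 1e-05, adjusted p = 0.000373; rho = 0.68, 0.65 without the 2 farthest arrays, 0.71 to 0.82 within letters). It also went with the ventromedial, lateral and mammillary markers at r = 0.70 and with the other peptides and receptors of the suprachiasmatic nucleus at 0.72, where Spearman rho was 0.64 and 0.71 and the adjusted permutation p of r 0.00131 and 0.00112. Six6 did so with the arcuate markers at r = 0.66 (rho = 0.74, adjusted permutation p = 0.00128). Rgs16 opposed the arcuate markers (r = -0.67, rho = -0.59, adjusted permutation p = 0.00131) and the other suprachiasmatic peptides (r = -0.65, rho = -0.60, adjusted permutation p = 0.00131). It went with the clock genes (r = 0.60, rho = 0.70, adjusted permutation p = 0.00413). It also went with the other transcription factors and intracellular genes of the suprachiasmatic nucleus (r = 0.58, rho = 0.56, adjusted permutation p = 0.00877). The r of Rgs16 with the thalamus markers was 0.95, and their part in its relations with these lists was not tested.

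**Figure D4:**
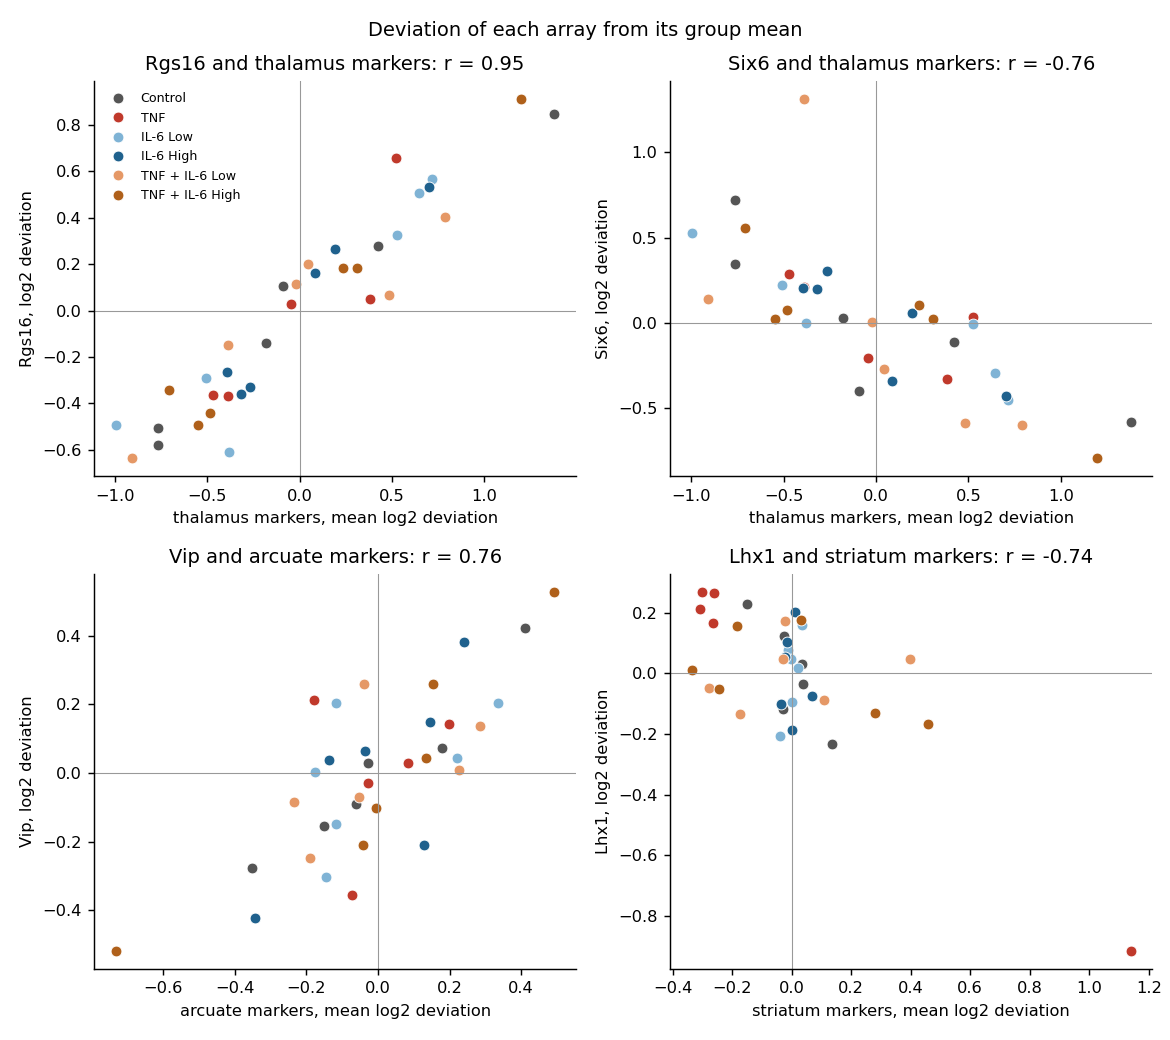
Deviation of each of 35 arrays from its group mean (points, coloured by group), in log2 units, for a member (vertical axis) and the mean of a marker list (horizontal axis). Rgs16 follows the thalamus markers closely (r = 0.95), Six6 opposes them (-0.76), Vip follows the arcuate markers (0.76), and the relation of Lhx1 with the striatum markers (-0.74) is led by TNF replicate 6, at the lower right.

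The myelin markers had relations with 5 members. Six6 (r = -0.67, adjusted permutation p = 0.00131), Prokr2 (-0.55, adjusted permutation p = 0.0195), Prok2 (-0.54, adjusted permutation p = 0.028) and Vip (-0.53, adjusted permutation p = 0.0267) went against them, and Rgs16 (0.60, adjusted permutation p = 0.00411) with them. Spearman rho was -0.64, -0.38, -0.65, -0.48 and 0.58 in this order, and r without the 2 farthest arrays -0.56, -0.32, -0.63, -0.57 and 0.52. The calls of Prokr2 and Vip were lost without TNF + IL-6 High replicate 2, at r = -0.43 and -0.42, and that of Prok2 without IL-6 High replicate 4, at -0.50 (adjusted permutation p = 0.105, 0.102 and 0.1).

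Vipr2 had an adjusted p under 0.05 only with the other transcription factors and intracellular genes of the nucleus (r = 0.47, rho = 0.46, adjusted permutation p = 0.0282), which fell to 0.32 without the 2 farthest arrays and ran from -0.86 to 0.76 within letters, and was 0.39 without TNF replicate 5 (adjusted permutation p = 0.0924). Its r was 0.25 with the thalamus markers and -0.09 with the arcuate markers. Prokr2 went with the arcuate markers (r = 0.50, rho = 0.31, adjusted permutation p = 0.0327), at 0.34 without the 2 farthest arrays and 0.30 without TNF + IL-6 High replicate 2 (adjusted permutation p = 0.225). Lhx1 went with the other peptides and receptors of the suprachiasmatic nucleus (r = 0.49, rho = 0.47, adjusted permutation p = 0.022), at 0.36 without the 2 farthest arrays, 0.39 without TNF replicate 6 (adjusted permutation p = 0.118) and -0.22 to 0.85 within letters. With the striatum markers Lhx1 had r = -0.74, but rho = -0.42, an adjusted permutation p of 0.0878 and r = -0.40 without the 2 farthest arrays. Nms had no relation with any list at an adjusted p under 0.05, its largest r in size being -0.29, with the cerebellum markers.

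The single genes most like each member are given with r over 35 arrays and no test. Those of Rgs16 were Synpo2 (0.95), the protein kinase C gene Prkcd (0.946), a marker of the thalamus, and Vav3 (0.941). Those of Vip were the feeding peptide Npy (0.831), Tmem91 (0.821) and the tachykinin gene Tac1 (0.791), and those of Six6 were Tmem176a (0.855), the imprinted zinc finger gene Plagl1 (0.848) and Fam183b (0.843). Prokr2 was most like the cadherin gene Cdh13 (0.755), Ttll13 (0.705) and the GABA receptor subunit Gabra5 (0.701), and Prok2 most like the scaffold gene Akap5 (0.701), Sntg2 (0.695) and Rgs9 (0.673), a striatal relative of Rgs16. Vipr2 was most like the nuclear receptor Rorb (0.654), Csprs (0.638) and Tulp4 (0.634), Lhx1 most like Adgrv1 (0.666) and the ribosomal protein genes Rpl17 (0.665) and Rps6 (0.646), and Nms most like Gtpbp6 (0.60), Ankle1 (0.593) and Zfp668 (0.588). The nearest gene was thus much closer for Rgs16, Six6 and Vip than for Nms and Vipr2.

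Markers of tissue next to the hypothalamus varied widely between arrays. Over the 35 arrays the log2 intensity of the cerebellar granule cell gene Gabra6 ran from 2.92 to 8.15, and that of the pituitary hormone gene Prl from 3.16 to 12.8. In TNF, where Nms and Vipr2 were lower, all 8 cerebellum markers were higher, with a median log2 difference of 0.65 and a range of their mean of 5.09 to 7.66 against 5.05 to 5.27 in Control. The cerebellum mean was led by TNF replicate 2, at 1.82 above its group, while every other TNF array lay below the group mean. All 7 thalamus markers were lower in TNF and all 8 meningeal markers were lower, with a median of -0.63. All 4 tested markers of cortex and hippocampus and all 6 of the striatum were also higher in TNF, with medians of 0.33 and 0.35. Their list means were 6.21 and 7.41 against 5.69 and 7.09 in Control. These were led by TNF replicate 6, at 1.22 and 1.14 above its group, while every other TNF array lay below the group mean. The ranges were 5.66 to 7.43 and 7.10 to 8.54 in TNF, against 4.99 to 6.09 and 6.94 to 7.23 in Control. In IL-6 High, where Vipr2 was lowest, the 8 meningeal markers were all lower, with a median of -0.72 and a range of their mean of 5.90 to 7.70 against 6.03 to 8.60 in Control, while the thalamus and arcuate markers were at 0.04 and 0.01. Their part in the differences of Vipr2 and Nms was not tested. The correlation of Vipr2 with the meningeal markers across arrays was -0.07 and that of Nms 0.16.

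The letters of the array names took different shares of the members' spread within groups. They held 26.5% of that of Six6, 19.8% of that of Vipr2, 15.6% of that of Lhx1 and 13.1% of that of Vip. For Nms, Rgs16, Prok2 and Prokr2 the shares were 8.5%, 7.9%, 4.6% and 3.2%. Whether these shares exceed those without a letter effect was not tested. The letter follows the replicate number, so the letter and replicate blocks are not separate checks. The mean Six6 deviation was 0.26 on the 6 arrays with letter E and -0.34 on the 6 with letter H, where 5 of 6 arrays were below their group mean. Each group has arrays of every letter, and with the letter as a block the Vipr2 difference in IL-6 High was -0.38.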

How the data were processed

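Log2 intensities per transcript cluster were made by the authors with RMA, background correction, normalization and probe summary in 1 step, and were used as deposited. The version of that tool is not given in the sources. Of 35556 clusters, 21218 name 1 gene in the platform annotation and were used (1881 name several, 12457 none). A gene was tested where 3 or more arrays had an intensity above 20. This intensity filter follows the methods, while their minimum number of probes for a gene and their remapped probe sets were not used. A linear model with 6 group means and an intensity trend was fitted in limma 3.58.1 (R 4.3.3), with Benjamini-Hochberg adjustment over 15049 genes and a threshold of 0.05. It was tested on simulated data. The excluded TNF array is not named in the methods. TNF replicate 4 was taken for it.

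Groups followed the sample titles. For Control replicates 5 and 6 the animal numbers in sample labels and array names do not match, while both give Control. The animal numbers in these Control array names recur for mice of the TNF + IL-6 High group. Whether samples were exchanged was not tested. Of 122 listed genes, 109 were named in the annotation and 106 tested. Correlations used deviations from group means, 100000 permutations within groups and Benjamini-Hochberg adjustment per family (Python 3.11.15, scipy 1.17.1). The members and lists were chosen with earlier results of these data known. By rule, the text names the members, list genes of smallest p and the 3 most correlated genes of each member, without predicted genes or receptor families of smell. Alternatives were all 36 arrays, other filters and normalizations, no trend, array weights, only the groups compared, a replicate or letter block, mean clusters and leaving out each array.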

Additional observations from a re-analysis of the deposited data

Results flagged for a closer look

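Among 48 sets of 5 or 6 arrays (8 members in 6 groups), 3 held an array far from the others of its group, where chance gives about 1 in 20. Lhx1 was at 5.15 on TNF replicate 6, with the nearest TNF array at 6.23. Vipr2 was at 6.75 on TNF + IL-6 High replicate 5, with the nearest array of the group at 7.12. Nms was at 5.13 on Control replicate 3, with the nearest Control array at 4.84, and without it the Nms difference in TNF was -0.20. Prok2 was at 6.88 on TNF replicate 4, the array left out of all comparisons, above the highest Control array at 5.08. The lower and upper quartiles of all clusters on TNF replicate 4 were 5.49 and 6.65, against 4.17 and 7.42 on Control replicate 1. Dim clusters thus read higher there in general, and the value is not particular to Prok2. Rgs16, a brighter member, was at 5.74 on it, below the lowest Control array at 7.425. On TNF replicate 6 the mean of the striatum markers was 1.14 above that of its group, and its part in the Lhx1 value was not tested.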

How the results depend on the processing

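No member passed at an adjusted p under 0.05 under any of 11 alternatives or without any of 35 arrays in turn (smallest adjusted p 0.351, for Vipr2 in TNF without TNF replicate 3), so the counts of members called were 0 throughout. Of 528 differences recomputed under the alternatives, 510 kept their direction. With all 36 arrays Prok2 turned to 0.17 in TNF and to 0.049 in the mean of the treated groups, Rgs16 in that mean turned to -0.0468, and 2 rather than 4 pairs of members were called. Median centring turned 3 members in TNF + IL-6 Low, Nms (0.0179), Prok2 (0.0045) and Six6 (0.0302), and Lhx1 after TNFα with 800 pg IL-6 (0.0152). Quantile normalization turned the same Six6 (0.0151) and Lhx1 (0.0087) values. Array weights turned Lhx1 in TNF (0.11) and IL-6 High (0.022), Six6 in IL-6 High (0.0276) and Prokr2 in IL-6 Low (0.0386). For TNFα with 50 pg IL-6 they turned Prokr2 (0.0595), Six6 (0.11) and Vipr2 (0.0065), and in the mean of the treated groups Prok2 (0.0052) and Rgs16 (-0.0204). The cause was not tested.

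Leaving out 1 array at a time, 783 of 822 differences kept their direction. The values that did not ranged as follows. In TNF, Lhx1 ranged from -0.0783 to 0.22 (without TNF replicate 6). In IL-6 High, Lhx1 ranged from -0.0661 to 0.0259, Rgs16 from -0.14 to 0.14 and Six6 from -0.19 to 0.0712. In TNF + IL-6 Low, Nms ranged from -0.0871 to 0.0458, Prokr2 from -0.0937 to 0.0316, Six6 from -0.27 to 0.14 and Vipr2 from -0.12 to 0.0138. In TNF + IL-6 High, Lhx1 ranged from -0.057 to 0.0351, Prok2 from -0.0264 to 0.21, Prokr2 from -0.20 to 0.0179 and Rgs16 from -0.34 to 0.0126. In the mean of the treated groups Prok2 ranged from -0.0429 to 0.004 and Rgs16 from -0.10 to 0.19. Vipr2 in IL-6 High kept a difference of -0.44 to -0.31, and in TNF one of -0.41 to -0.16 (without TNF replicate 5), and its departures from additivity stayed between 0.35 and 0.63.

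With all 36 arrays 18 rather than 26 relations of members with lists were called. Vip with Rgs16 was then at r = -0.38, Rgs16 with the arcuate markers at -0.05 and Rgs16 with the thalamus markers at 0.82. Without 1 array the pairs called numbered 3 to 6 and the relations with lists 21 to 29. With the replicate block 4 pairs and 31 relations were called, and Vipr2 in IL-6 High was at -0.38 (limma adjusted p = 1.00). The labels do not say that replicate numbers pair mice. Arrays of 1 number correlated at a median of 0.07 (from -0.31 to 0.58), and 11 of 35 correlated best with their own number. The dim genes Nms and Prok2 fell below a minimum intensity of 50, which left 6 members.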
